A study of Mus musculus with 4 samples.

Results

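Integrins are cell-surface adhesion receptors made of an alpha and a beta chain, and the 10 genes described here encode the integrin chains usually discussed for macrophages and osteoclasts. They were chosen by symbol, as Itgav, Itgb3, Itgb5, Itgax, Itgam, Itgal, Itgb2, Itga4, Itga5 and Itgb1, and all 10 were found among the 17194 gene symbols of the count table. The cells were primary mouse macrophages grown from bone marrow and kept for 2 days with RANKL, the cytokine that turns them into osteoclasts. Polyadenylated RNA was sequenced from 2 libraries labelled siHells, in which the chromatin remodeller Hells was targeted by siRNA, and from 2 labelled siControl, with RANKL given to both groups. The labels give no mouse strain, age or sex, no siRNA sequence and no statement that libraries came from separate animals or cultures. P-values therefore measure only the spread between these libraries, which may be technical.

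In a macrophage, the beta 2 integrins bind complement fragments and ICAMs, and the beta 1 integrins bind fibronectin and VCAM-1. The alpha v chain takes several beta partners, and alpha v beta 3 is the receptor with which osteoclasts attach to osteopontin and vitronectin on bone. Mouse marrow macrophages carry alpha v beta 5 before osteoclast differentiation, and alpha v beta 3 becomes the main alpha v receptor as it proceeds. A chain reaches the surface only with a partner, and an mRNA level says nothing of how much of each pair is formed.

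Total counts were 55642819 and 55012697 in the siHells libraries and 53502523 and 48873635 in the siControl libraries. Hells itself had 15.2 and 14.6 CPM in siHells and 29.3 and 30.0 CPM in siControl, which is 1.99-fold lower (log2 fold change -0.99, adjusted p = 5.96e-09, SE 0.068). All adjusted p-values given come out of edgeR's quasi-likelihood test. CPM are counts scaled to TMM-corrected library totals, and fold changes are siHells over siControl. Summed over 8 osteoclast markers the level was 1201 to 1240 CPM in siHells against 8249 to 8315 CPM in siControl, and all 8 fell. Summed over 8 macrophage markers it was 24861 to 25631 CPM in siHells against 15602 to 15732 CPM in siControl, with 7 higher and 1, Cd68, lower. Most of the macrophage sum came from Lyz2, at a mean of 17284 CPM in siHells and 11347 CPM in siControl. In such bulk RNA, fewer cells of a type and less RNA per cell cannot be told apart. The lymphocyte markers Cd3e, Cd3d, Cd3g, Cd8a, Cd79a, Ms4a1 and Pax5 were not in the table used here, nor were any of 5 natural killer and 5 erythroid markers. Of 6 B-cell markers 2 were in the table, summing to 10.2 to 11.1 CPM in siHells and 7.15 to 8.01 CPM in siControl, where Ebf1 rose 1.91-fold and Cd79b did not pass (adjusted p = 0.802).

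Among the 10 chains, 3 rose (Itgb5, Itga5 and Itgam), 5 fell (Itgax, Itgb3, Itgav, Itga4 and Itgb2) and 2 did not pass the threshold of an adjusted p of 0.05 (Itgal and Itgb1). All 10 passed the filter on low counts. Over all 15651 genes tested, 58.5% were called, 29.0% as higher and 29.5% as lower, and the 8 called chains of 10 stand beside that background without anything particular to them being read from it. The siHells libraries lay wholly above or below the siControl libraries in 8 of the 10, against 78.5% of all genes. The median log2 fold change was -0.11 over the chains and 0.00 over all genes. In a test against a 1.5-fold change rather than no change, 1 chain was higher (Itgb5) and 3 were lower (Itgax, Itgb3 and Itgav).

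**Figure D1:**
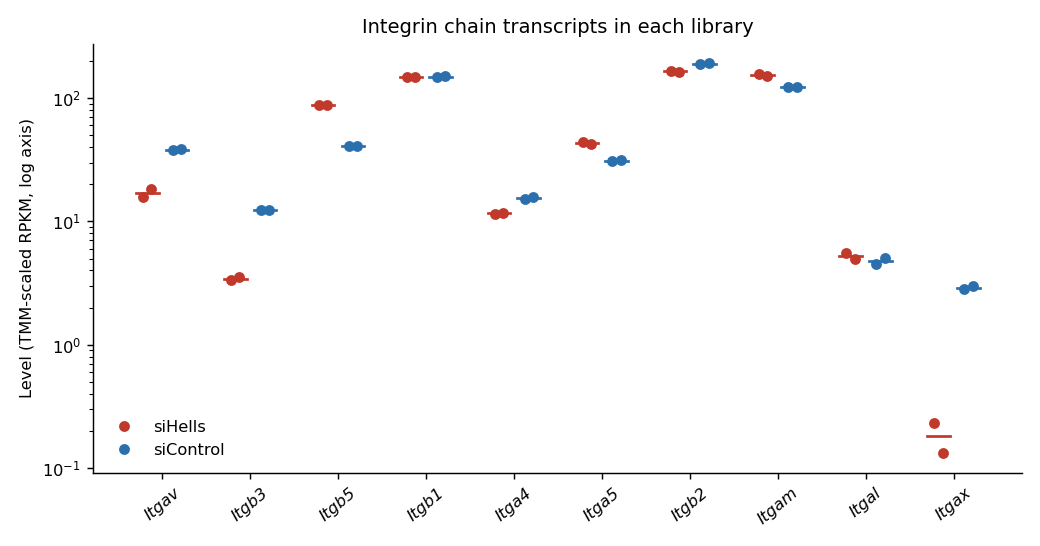
Transcript level of each of the 10 chains in each library, as RPKM (TMM-scaled CPM per kilobase of exon) on a log axis, with siHells in red to the left of siControl in blue. Points are libraries and lines are means of 2; Itgb3 lay at 3.34 and 3.53 RPKM in siHells against 12.4 RPKM in each siControl library, and the Itgal points of the groups overlap.

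Itgav and Itgb3, the chains of the osteoclast vitronectin receptor, fell, and Itgb5, another beta partner of alpha v, rose. Itgav encodes the alpha v chain and lies on the plus strand of chromosome 2, at 83724397 to 83806916 of GRCm38. It had 9159 and 10478 counts, or 169 and 195 CPM, in siHells, against 22436 and 20597 counts, or 408 and 412 CPM, in siControl. Both siHells libraries were below both siControl libraries, a 2.25-fold fall (log2 fold change -1.17, SE 0.064, adjusted p = 5.22e-06). The siHells libraries differed from each other more than the siControl libraries did, with an SD of 18.6 CPM in siHells and 2.41 CPM in siControl (n = 2 each). Itgav shares 634 exonic bases with Gm13684 on the opposite strand, a transcript that is not analysed here.

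Itgb3 encodes beta 3, the chain that gives the osteoclast vitronectin receptor its identity, and lies on chromosome 11 at 104608000 to 104670476, plus strand. Its counts were 1067 and 1118 in siHells and 4036 and 3654 in siControl, that is 19.7 and 20.8 CPM in siHells against 73.4 and 73.0 CPM in siControl. The groups did not overlap and the fall was 3.61-fold (log2 fold change -1.85, SE 0.055, adjusted p = 2.12e-13). Ordered from the lowest of the 15651 log2 fold changes, Itgb3 was at place 248 and Itgav at place 707.

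Itgb5 encodes beta 5, the partner of alpha v in macrophages before differentiation, and lies on chromosome 16 at 33829665 to 33949338, plus strand. It had 16938 and 16690 counts in siHells and 7980 and 7322 in siControl, or 312 and 311 CPM in siHells against 145 and 146 CPM in siControl. It was the largest rise among the 10 chains, 2.14-fold, with libraries of a group within 2 CPM of each other (log2 fold change 1.10, SE 0.032, adjusted p = 2.11e-13). Rises of at least 2-fold past the threshold were made by 6.75% of all genes, and falls of that size by 5.52%.

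The proportion of beta 3 to beta 5 can be read within each library, without any scaling between libraries. Itgb3 held 5.93% and 6.28% of the Itgb3 and Itgb5 counts in siHells (95% exact binomial intervals 5.59 to 6.28% and 5.93 to 6.64%), against 33.6% and 33.3% in siControl (32.7 to 34.4% and 32.4 to 34.2%). The mean share was 27.3 percentage points lower in siHells, many times the spread within a group (SD 0.249 points in siHells and 0.211 points in siControl). The exact two-sided permutation test gave p = 0.333, the smallest that 2 libraries against 2 allow, for this and for each of 5 shares computed, and adjustment over the 5 leaves it at 0.333. These intervals cover counting error only. Per kilobase of exon, Itgb5 transcripts outnumbered Itgb3 transcripts 26.4 and 24.8 to 1 in siHells and 3.28 and 3.33 to 1 in siControl.

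The beta chains analysed here that alpha v can pair with did not fall as a pool, but most of that pool was Itgb1. Summed over Itgb1, Itgb3 and Itgb5 the level was 239 RPKM in each siHells library and 201 and 203 RPKM in the siControl libraries. Itgb1 alone was at 148 RPKM in each siHells library and 148 and 150 RPKM in the siControl libraries. Itgav was at 15.7 and 18.2 RPKM in siHells and 38.0 and 38.3 RPKM in siControl. Beside these changes stand the osteoclast markers given above, and their part in the result was not tested.

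The fibronectin and VCAM-1 receptors showed opposite changes in their alpha chains over a beta chain for which no difference was detected. Itgb1 encodes beta 1, the shared partner, on chromosome 8 at 128685654 to 128733200, plus strand. It had 603 and 602 CPM in siHells and 603 and 612 CPM in siControl, so the groups overlapped (log2 fold change -0.01, SE 0.027, adjusted p = 0.747). With library totals in place of TMM it was called lower, at -0.08 (adjusted p = 0.0122), when the median of all genes was also -0.08.

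Itga4, the alpha 4 chain of the VCAM-1 receptor, lies on chromosome 2 at 79255426 to 79333123, plus strand. It fell 1.33-fold, with 159 and 165 CPM in siHells and 211 and 220 CPM in siControl (log2 fold change -0.41, SE 0.036, adjusted p = 1.22e-07). Itga5, the alpha 5 chain of the main fibronectin receptor, lies on chromosome 15 at 103344286 to 103366763, minus strand. It rose 1.38-fold, with 216 and 208 CPM in siHells and 152 and 155 CPM in siControl (log2 fold change 0.47, SE 0.035, adjusted p = 1.63e-08).

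For both alpha chains the groups were apart, and their order by counts turned over. Itga5 held 57.5% and 55.8% of the Itga4 and Itga5 counts in siHells (intervals 56.8 to 58.2% and 55.1 to 56.5%) and 41.8% and 41.3% in siControl (41.2 to 42.5% and 40.6 to 42.0%). Itga4 has the longer transcripts, and per kilobase of exon Itga5 was the more abundant of the pair in every library, at 78.1 to 79.3% in siHells and 66.6 to 67.1% in siControl. Itga4 shares 1124 exonic bases with Cerkl on the opposite strand, which had only 41 and 57 counts in siHells and 47 and 41 counts in siControl.

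**Figure D2:**
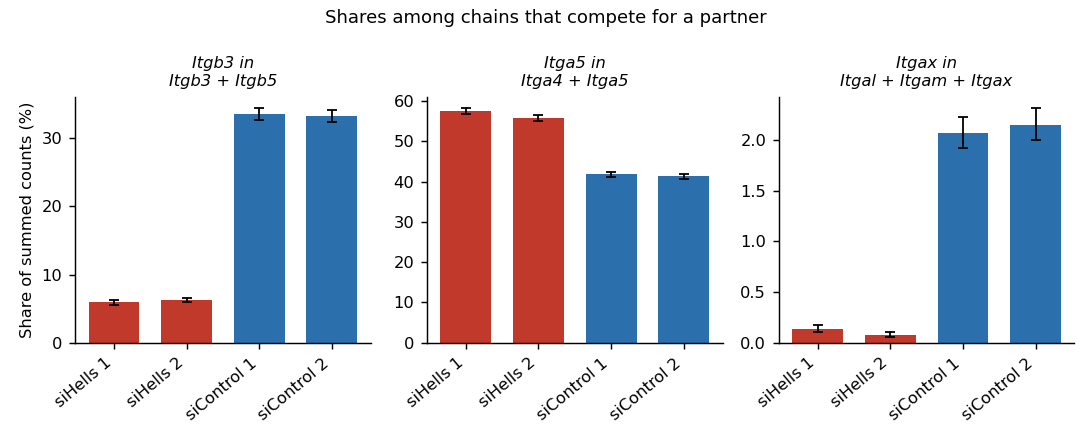
Share of summed counts, in percent, held by Itgb3 among Itgb3 and Itgb5, by Itga5 among Itga4 and Itga5, and by Itgax among Itgal, Itgam and Itgax, in each library (bars from 0; error bars are 95% exact binomial intervals, for counting error only). Itgb3 falls to 5.93% and 6.28% in siHells against 33.6% and 33.3% in siControl, and Itgax to 0.133% and 0.0794% in siHells against 2.07% and 2.15% in siControl.

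The leukocyte integrins share beta 2 and differ by their alpha chain, and their genes went different ways. Itgb2, the beta 2 chain on chromosome 10 at 77530252 to 77565708, plus strand, had 510 and 501 CPM in siHells and 579 and 582 CPM in siControl. The groups were apart by a small amount, a 1.15-fold fall (log2 fold change -0.20, SE 0.028, adjusted p = 1.63e-05). Its paralogue Itgb2l, with 141 and 130 counts in siHells and 113 and 121 counts in siControl, did not pass the threshold and lay far below it in level.

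Itgam encodes alpha M, which with beta 2 forms complement receptor 3, also known as Mac-1 or CD11b/CD18. It had 42989 and 41080 counts in siHells and 33628 and 30914 in siControl, or 793 and 766 CPM in siHells against 612 and 618 CPM in siControl. The rise was 1.27-fold with no overlap (log2 fold change 0.34, SE 0.028, adjusted p = 5.11e-08). GENCODE M21 places Gm49368, a protein-coding model that shares 3450 exonic bases with Itgam on the same strand, over this gene, so reads may have been split or dropped between them.

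Itgal encodes alpha L, the chain of LFA-1, which binds ICAMs, and lies on chromosome 7 at 127296260 to 127335138, plus strand. It had 36.1 and 32.3 CPM in siHells and 29.6 and 33.2 CPM in siControl, and the groups overlapped (log2 fold change 0.13, SE 0.071, adjusted p = 0.143). It passed the threshold without siHells replicate 2 (0.21, adjusted p = 0.0126) and without siControl replicate 2 (0.22, adjusted p = 0.0385), so its call rests on which library is kept.

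Itgax encodes alpha X, or CD11c, which with beta 2 forms complement receptor 4 and is used as a marker of dendritic cells and of some macrophages. It had 60 and 34 counts in siHells and 745 and 716 in siControl, or 1.11 and 0.634 CPM in siHells against 13.6 and 14.3 CPM in siControl. Every siHells value was far below every siControl value, and the fall was 15.9-fold (log2 fold change -3.99, SE 0.17, adjusted p = 1.86e-11), at place 19 from the lowest of the 15651. Leaving out siHells replicate 1 gave -4.45, and leaving out siHells replicate 2 gave -3.65. Of 8 dendritic-cell markers, Xcr1, Cd209a, Ccr7 and Klrd1 were not in the table, and the other 4 summed to 8.39 to 8.44 CPM in siHells and 4.80 to 5.18 CPM in siControl. Of those 4, Flt3 and Zbtb46 rose, and Clec9a (log2 fold change -0.62, adjusted p = 0.242) and Siglech (0.18, adjusted p = 0.760) did not pass. The part of dendritic cells in the Itgax level was not tested. Beside the beta 2 family, 8 neutrophil markers summed to 388 to 411 CPM in siHells against at least 482 CPM in each siControl library, with 1 higher and 5 lower, and their part in these levels was not tested.

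Within the beta 2 partners, Itgam held nearly all counts in both groups. Its share of the Itgal, Itgam and Itgax counts was 95.5% and 95.9% in siHells (intervals 95.3 to 95.7% and 95.7 to 96.1%) and 93.4% and 92.9% in siControl (93.1 to 93.7% and 92.6 to 93.1%). The Itgax share was 0.133% and 0.0794% in siHells (0.102 to 0.172% and 0.055 to 0.111%) and 2.07% and 2.15% in siControl (1.92 to 2.22% and 2.00 to 2.31%).

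Itgam and Itgax are neighbours in the same orientation on chromosome 7, at 128062640 to 128118491 and 128129547 to 128150657, with 11055 bases between them, where Itgam rose and Itgax fell. Their promoter windows are shown for that reason, together with that of Itgb5, the chain with the largest rise. Each covers 250 bases before to 50 bases after the RefSeq gene start in GRCm38.p6, plus strand, written 5′ to 3′: chr7:128129300-128129599 for Itgax, chr7:128062390-128062689 for Itgam and chr16:33829415-33829714 for Itgb5. RefSeq windows were matched for 7 of the 10 chains, without Itgb3, Itgal and Itgb2. Capitals mark every match, on either strand, to GAGGAA, a core bound by PU.1-type ETS factors, or to TGANTCA, the core bound by AP-1.
Itgax: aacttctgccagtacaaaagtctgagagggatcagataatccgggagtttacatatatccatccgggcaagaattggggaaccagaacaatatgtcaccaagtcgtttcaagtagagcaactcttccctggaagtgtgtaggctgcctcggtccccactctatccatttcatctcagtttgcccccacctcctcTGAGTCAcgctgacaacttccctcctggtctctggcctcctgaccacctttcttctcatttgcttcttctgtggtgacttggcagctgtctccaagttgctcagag
Itgam: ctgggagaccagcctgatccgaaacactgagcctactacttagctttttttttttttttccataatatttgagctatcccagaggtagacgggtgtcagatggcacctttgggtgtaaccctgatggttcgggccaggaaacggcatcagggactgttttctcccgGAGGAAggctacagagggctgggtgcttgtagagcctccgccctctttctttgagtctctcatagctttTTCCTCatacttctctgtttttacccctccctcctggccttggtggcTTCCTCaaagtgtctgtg
Itgb5: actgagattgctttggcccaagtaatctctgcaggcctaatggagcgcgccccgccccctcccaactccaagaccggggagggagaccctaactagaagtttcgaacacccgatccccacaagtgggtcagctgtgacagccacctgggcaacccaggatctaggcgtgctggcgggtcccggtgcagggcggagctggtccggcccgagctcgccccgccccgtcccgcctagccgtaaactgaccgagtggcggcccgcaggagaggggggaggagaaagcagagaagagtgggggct

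The Itgam window holds 3 matches to GAGGAA, starting 84 and 15 bases before the gene start and at base 33 of the transcript, and no match to TGANTCA. The Itgax window holds 1 match to TGANTCA, starting 56 bases before the start, and no match to GAGGAA. The Itgb5 window holds neither. Over the 7 windows, 4 hold GAGGAA (Itgav, Itgam, Itgb1 and Itga5) and 1 holds TGANTCA, with no overlap between matches of the 2 motifs. Of all 32851 RefSeq windows of this length, 28.3% hold GAGGAA and 7.81% hold TGANTCA. A match describes letters only, and binding was not measured here.

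Levels can be compared between chains per kilobase of exon. In siHells the order by mean RPKM was Itgb2 (166), Itgam (155), Itgb1 (148), Itgb5 (87.7), Itga5 (43.0), Itgav (15.7 and 18.2 in its libraries), Itga4 (11.6), Itgal (5.21), Itgb3 (3.43) and Itgax (0.181). In siControl it was Itgb2 (191 in its higher library), Itgb1 (149), Itgam (122), Itgb5 (41.0), Itgav (38.2), Itga5 (31.1), Itga4 (15.4), Itgb3 (12.4), Itgal (4.78) and Itgax (2.90). The 2 libraries of each chain did not overlap with those of its neighbour in either order. These levels use all exons annotated for a gene, so the place of chains close together depends on the transcripts that are really made. Itgam stood above Itgb1 in siHells and below it in siControl, Itga5 likewise stood above Itgav in siHells and below it in siControl, and Itgb3 stood below Itgal in siHells and above it in siControl. Summed over the 6 alpha chains the mean level was 232 RPKM in siHells and 215 RPKM in siControl, and over the 4 beta chains 406 and 403 RPKM in siHells and 391 and 394 RPKM in siControl.

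**Figure D3:**
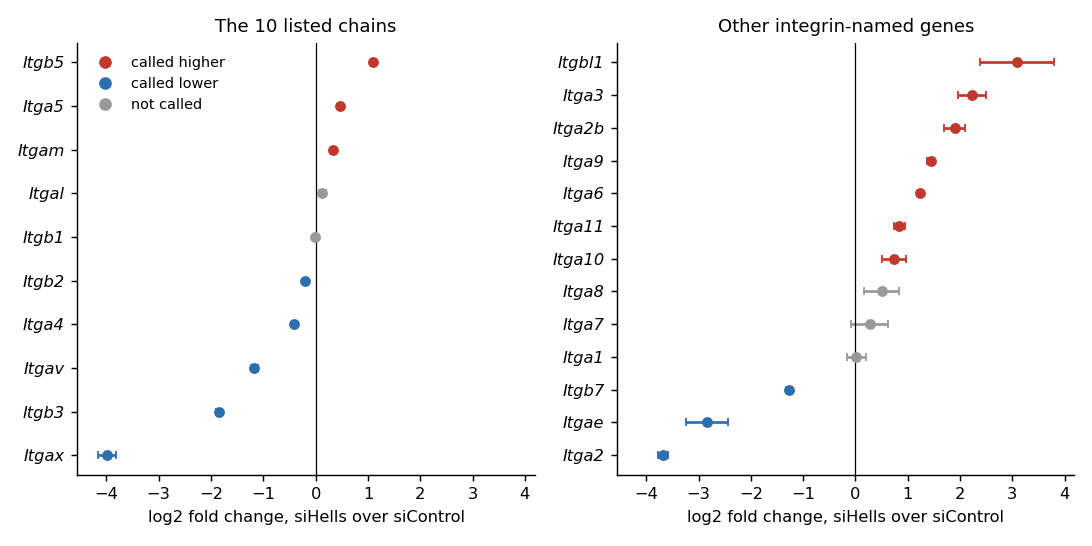
Log2 fold change, siHells over siControl, of the 10 chains (left) and of 13 other integrin-named genes past the count filter (right), with standard errors; red is called higher, blue called lower and grey not called at an adjusted p of 0.05. The 10 chains run from -3.99 (Itgax) to 1.10 (Itgb5), and Itga2 at -3.68 is the lowest on the right.

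The remaining integrin chains also went both ways. Of 17 other integrin-named genes, 14 were in the table and 13 were tested, of which 7 rose, 3 fell and 3 did not pass, against 29.0% higher and 29.5% lower over all genes. Itgbl1 among the rises and Itgae among the falls passed the count filter only through the group where they were high. Nothing is read from their calls. Itgad, Itgb6 and Itgb8 are not analysed here, and Itgb4 had at most 10 counts in any library. Itga6, the alpha 6 chain of laminin receptors, was as abundant in counts as Itgb5 and rose 2.35-fold, with 339 and 342 CPM in siHells against 149 and 141 CPM in siControl (adjusted p = 1.53e-13). Itga9, a chain whose integrin also binds VCAM-1 and osteopontin, rose 2.72-fold to 47.0 ± 2.14 CPM in siHells, against 17.3 ± 0.852 CPM in siControl (SD, n = 2 each). Itga2, the alpha 2 chain of a collagen receptor, fell 12.8-fold, with 135 and 143 counts in siHells and 1764 and 1698 in siControl (log2 fold change -3.68, SE 0.10, adjusted p = 8.21e-14).

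Itgb7, which pairs with alpha 4 and alpha E on leukocytes, fell 2.40-fold, with 29.3 and 27.9 CPM in siHells and 67.4 and 70.1 CPM in siControl (adjusted p = 1.43e-11). Itgae, the alpha E chain, had 6 and 11 counts in siHells and 60 in each siControl library, and it also fell (log2 fold change -2.84, adjusted p = 2.06e-05). Itga4, the other known alpha partner of beta 7, fell 1.33-fold. Itgae passed the count filter only through siControl, the group where it was high, and no shared beta 7 pattern is read from it. Of 6 T-cell markers only Lck and Cd247 were in the table, summing to 0.24 to 0.447 CPM in siHells and 0.679 to 0.71 CPM in siControl. Lck, with 3 counts in each siHells library and 19 and 16 in siControl, was called lower but passed the count filter only through siControl. Cd247 did not pass the threshold (adjusted p = 0.570). Of 5 mast-cell and basophil markers, 3 were in the table, at 1.68 to 2.08 CPM in siHells and 3.04 to 4.0 CPM in siControl. Kit was called lower, Cpa3 was called higher and Mcpt8 did not pass. Cpa3 had 18 and 13 counts in siHells and 3 and 7 in siControl. It passed the count filter only through siHells, the group where it was high, and nothing is read from its call. The part of such cells in Itgb7 and Itgae was not tested.

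The other rises were in genes of low count. Itga3 had 188 and 284 counts in siHells and 59 and 39 in siControl (log2 fold change 2.23, SE 0.27). Itga2b, the alpha IIb chain of platelets and megakaryocytes, had 215 and 265 counts in siHells and 65 and 60 in siControl (log2 fold change 1.90, SE 0.20). Beside it, 6 megakaryocyte markers summed to 161 to 162 CPM in siHells and 49.0 to 53.3 CPM in siControl, most of it from Pf4. Pf4 and Ppbp rose, at 3.24-fold and 2.03-fold. Gp5 was called higher, at 3.15-fold, and Gp9, Gp6 and Gp1bb did not pass. The Gp genes were near the floor. Gp5 had 37 and 25 counts in siHells and 11 and 8 in siControl, and Gp9, Gp6 and Gp1bb at most 32 in any library. Gp5 passed the count filter only through siHells, the group where it was high, and nothing is read from its call. The part of such cells in Itga2b was not tested. Itga11 and Itga10, chains of collagen receptors, rose 1.79-fold and 1.66-fold, and Itga10 missed the threshold without siHells replicate 1 (adjusted p = 0.147) or siControl replicate 1 (adjusted p = 0.0587). Itga10 also shares 1739 exonic bases with the model Gm42957 on the same strand. Itgbl1, which resembles beta chains but is not a receptor subunit, had 23 and 14 counts in siHells and 2 in each siControl library. Both siControl values lay below the floor of the count filter, so only a rise could be called for Itgbl1. Itga8, Itga7 and Itga1 had log2 fold changes of 0.50, 0.27 and 0.02 with adjusted p-values of 0.203, 0.546 and 0.932, and Itga8 passed without siHells replicate 2 (adjusted p = 0.0497).

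Ligands of integrins, in a list chosen with earlier results of these data known, were more often higher than lower. Of 40 genes listed, 34 were in the table and 33 were tested, of which 24 rose and 4 fell, against 29.0% higher and 29.5% lower over all genes. The median log2 fold change was 0.49 over the ligands and 0.00 over all genes. Vcam1, the ligand of alpha 4 beta 1 and alpha 9 beta 1, rose 42.8-fold to 459 ± 2.58 CPM in siHells, against 10.7 ± 0.690 CPM in siControl (SD, n = 2 each). C3, the complement protein whose fragment iC3b binds alpha M beta 2 and alpha X beta 2, rose 1.99-fold, with 41703 and 40040 counts in siHells and 20270 and 19600 counts in siControl (adjusted p = 8.37e-13). Adam9 and Adam15, membrane proteases with an integrin-binding disintegrin domain, rose 2.19-fold and 1.95-fold, and the basement-membrane collagen gene Col4a1 rose 2.93-fold.

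Spp1, which encodes osteopontin, the alpha v beta 3 ligand of bone, was the most abundant ligand that fell, with 476 and 482 CPM in siHells against 1206 and 1241 CPM in siControl (2.55-fold, adjusted p = 3.66e-15). Edil3, a secreted RGD protein that binds alpha v integrins, fell 2.92-fold, by 1.25 on the log2 scale without siHells replicate 1 and by 1.92 without siHells replicate 2. F11r, or JAM-A, a ligand of LFA-1, fell 1.74-fold. Icam1, which LFA-1 and Mac-1 bind, was lower by little (log2 fold change -0.11, adjusted p = 0.0214) and missed the threshold without siHells replicate 2 (adjusted p = 0.109), siControl replicate 1 (0.0578) or siControl replicate 2 (0.156). Fn1, fibronectin, rose 1.14-fold, with 455 and 439 CPM in siHells and 386 and 395 CPM in siControl. Beside the matrix genes of this list, 7 stromal markers summed to 1754 to 1784 CPM in siHells and 996 to 1019 CPM in siControl, with 5 higher and 1 lower, and Col1a1 stands on both lists. The part of stromal cells in these rises was not tested.

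Genes that regulate the switch of integrins to the active state, activators and inhibitors together, went both ways. Of 24 tested, 10 rose, 10 fell and 4 did not pass, against 29.0% higher and 29.5% lower over all genes, and their median log2 fold change was 0.08. Fermt3, kindlin-3, which with talin activates integrins in blood cells, rose 1.27-fold to 425 ± 1.11 CPM in siHells, against 336 ± 4.66 CPM in siControl. Fermt2, the related kindlin-2, rose 1.95-fold, with 1615 and 1712 counts in siHells and 789 and 874 counts in siControl. Tln1, talin itself, fell 1.09-fold, with 767 CPM on average in siHells and 839 and 841 CPM in siControl (adjusted p = 5.92e-04), and Flna, filamin A, which competes with talin for beta tails, fell 1.19-fold.

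Upstream of talin, the Rap1 exchange factor Rapgef1 fell 1.96-fold and Raph1, lamellipodin, a relative of the talin-recruiting adaptor RIAM, 1.82-fold. Rap1b, one of the Rap1 GTPases, fell 1.44-fold. Of the other exchange factors for Rap1, Rasgrp3 fell 2.17-fold and Rapgef3 1.59-fold, while Rasgrp2 rose 1.78-fold. Counts were low for Rasgrp3, at 138 and 111 in siHells and 288 and 238 in siControl. Those of Rapgef3 were 96 and 114 in siHells and 155 and 171 in siControl. Of the genes that switch Rap1 off, Sipa1 rose 1.42-fold and Rap1gap fell 1.67-fold. Cyth1, which binds the beta 2 tail, rose 1.25-fold, the Rap1 effector Krit1 1.29-fold and the adaptor Dok2 1.32-fold.

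**Figure D4:**
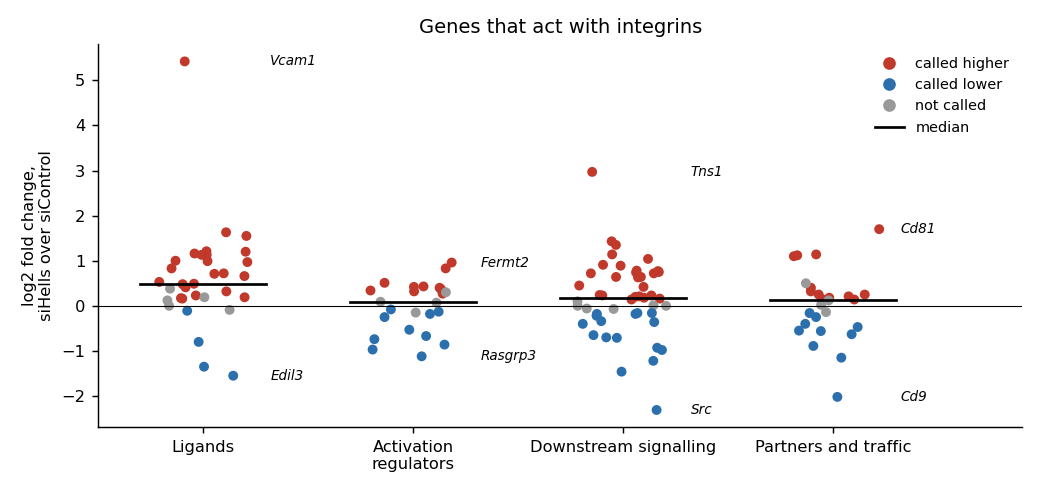
Log2 fold change, siHells over siControl, of the tested genes in 4 lists of genes that act with integrins: 33 ligands, 24 positive or negative regulators of activation, 48 downstream signalling genes and 26 partners and traffic genes. Red points are called higher, blue called lower and grey not called, the black line is the median (0.49, 0.08, 0.17 and 0.13), and the highest and lowest gene of each list is named.

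Downstream of bound integrins, 26 of 48 tested genes rose and 16 fell, where 29.0% of all genes rose and 29.5% fell, and their median log2 fold change was 0.17. Src, the kinase that alpha v beta 3 recruits in osteoclasts, fell 4.95-fold, with 44.7 and 43.2 CPM in siHells against 219 and 216 CPM in siControl (adjusted p = 5.36e-16). Dock5, an exchange factor for Rac needed for the sealing ring of osteoclasts, fell 2.75-fold, and Rac2 fell 1.97-fold. Adhesion-site proteins went both ways. Tns3, Git1, Ptpn12 and Vasp fell 1.63-fold, 1.90-fold, 1.63-fold and 1.56-fold, while Zyx, Ptk2 and Parva were among those that rose, at 1.55-fold, 1.72-fold and 2.05-fold.

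Other genes of the same cascade rose or did not pass the threshold. Tns1, a tensin that links beta tails to actin, rose 7.85-fold to 746 ± 20.6 CPM in siHells, against 95.1 ± 1.12 CPM in siControl. Fyb, the adaptor ADAP of leukocyte adhesion, rose 2.55-fold and Pik3r1, a regulatory subunit of phosphoinositide 3-kinase, 2.20-fold. The Src-family kinase Lyn rose 1.85-fold and Ptk2b, the kinase Pyk2, 1.34-fold. Syk, which is activated beside Src at alpha v beta 3, had 562 ± 9.12 CPM in siHells and 561 ± 5.57 CPM in siControl (log2 fold change 0.00, SE 0.028, adjusted p = 0.970).

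Among proteins that associate with integrins or carry them through the cell, 12 of 26 rose and 10 fell, beside 29.0% and 29.5% of all genes, and their median log2 fold change was 0.13. The tetraspanins went opposite ways, with Cd9 4.04-fold lower at 55.2 ± 1.57 CPM in siHells against 223 ± 1.69 CPM in siControl, Cd63 1.32-fold lower and Cd81 3.26-fold higher. Dab2, an endocytic adaptor of beta 1, rose 2.21-fold and Ehd1, a recycling ATPase, 2.18-fold, while the Rab11 effector Rab11fip1 fell 2.21-fold and Swap70, an actin-binding exchange factor, 1.85-fold. The galectins Lgals3 and Lgals1 fell 1.54-fold and 1.39-fold, and Plaur, the urokinase receptor, 1.47-fold.

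The genes whose profile over the 4 libraries lay nearest to the extreme chains were found by Euclidean distance of centred log2 CPM, among 12245 other genes. Nearest to Itgb5 were Slfn8, Anapc16 and Pid1, at 0.0177, 0.0185 and 0.0222 log2 units, with fold changes of 2.13, 2.17 and 2.13. Nearest to Itgax were H2-Ab1, an MHC class II chain, Rasgrp1, and Siglec15, a sialic-acid receptor of osteoclasts, at 0.0969, 0.180 and 0.256 log2 units, with falls of 11.1-fold, 12.4-fold and 16.0-fold. With 4 libraries in 2 groups, such nearness describes mainly the size of the change.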

How the data were processed

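Polyadenylated RNA of 4 libraries, 2 siHells and 2 siControl, was measured. The deposited values are raw read counts, whole numbers for each symbol. Per the submitters' processing notes, HISAT2 2.1.0, StringTie 2.1.3b, Trimmomatic 0.38, FastQC, edgeR and the mm10 build were used, with no roles named. The labels name both a SMARTer mRNA-Seq and a TruSeq Stranded kit, and neither the strand setting nor the annotation used for counting is given. Whether reads of genes overlapping on opposite strands were kept apart is therefore unknown. The lowest count was 1, so genes with 0 reads in a library were not analysed here.

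From the counts, edgeR's filterByExpr (minimum count 10, about 0.188 CPM) kept 15651 of 17194 genes. TMM factors were 0.974 and 0.975 for siHells and 1.03 and 1.02 for siControl. The edgeR 4.0.16 quasi-likelihood test (R 4.3.3, robust, current form, group as the only term, 2 residual degrees of freedom) was adjusted by Benjamini-Hochberg over all genes. The standard error is the log2 fold change divided by the square root of F. The procedure was tested on simulated counts of 15651 genes, of which 200 were changed. It recovered 48%, 74%, 70% and 92% of changes of 1.2-fold, 1.5-fold, 2-fold and 4-fold. In this simulated set 11 of its 153 calls were false, a share above the threshold of 0.05. Far fewer genes were changed there than the 58.5% called in these data. RPKM used exon lengths of GENCODE M21 (GRCm38), which also gave coordinates. Replicates were not copies of each other: their chi-square averaged 6.28 a gene between the siHells libraries and 3.45 between the siControl libraries, where sampling alone gives about 1. Alternatives were other scalings, filters, thresholds and tests (DESeq2 1.42.0, limma 3.58.1), the replicate number as a block, and leaving out each library.

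The chains and gene lists were chosen with earlier results of these data known. Genes named were Hells, the 10 chains, the other tested integrin genes, in each list the 6 smallest p-values plus up to 4 in the direction with fewer calls (for the activation list, where directions tied, 4 in each), and the 3 nearest profiles of the extreme chains. The choice for the tie, and Fn1, Rapgef3, Lyn, Ptk2b, Syk, Zyx, Ptk2, Parva, Itgb2l, Cerkl and Gm49368, the marker genes and the motifs were chosen after values had been seen.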

Additional observations from a re-analysis of the deposited data

How the results depend on the processing

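Over 14 alternatives, the 10 chains gave 140 values, of which 132 kept the direction and side of the threshold. In the test against a 1.5-fold change, 1 chain was higher and 3 were lower, and over all genes 1261 were higher and 1096 lower. Itgam, Itga5, Itga4 and Itgb2 did not pass it. Itgb1 was called lower with library totals (-0.08) and lay between -0.03 and 0.01 with a library left out, at 0.01 without siControl replicate 2, and Itgal passed without siHells replicate 2 or siControl replicate 2. The log2 fold change of Itgax lay between -4.45 and -3.65 and that of Itgb3 between -1.93 and -1.81 over all alternatives. The Itgb3 share differed by -27.5 to -27.2 points with a library left out and by -19.5 points per exon length, and the Itgax share by -2.04 to -1.96 points and -2.12 points. Same-numbered libraries shared little deviation from their group means (correlation 0.0292 over 12872 genes). With 2 libraries a group this cannot show whether they were prepared together. With the replicate block, 4502 genes were higher and 4586 lower, against 4541 and 4612 without it, and 3 chains were higher and 5 lower in both. With 2 libraries a group, a chain whose difference missed the threshold is not shown to be unchanged.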
